A study of Mus musculus with 15 samples.

Results

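This account covers the translation initiation and elongation factors of mouse kidney in ribosome-bound and remaining polysomal RNA. The factors were taken by name: genes read by a probe set (a group of short array probes that together report 1 transcript) with 1 gene only, whose platform symbol begins with Eif or Eef and a digit. The eIF2 kinases (Eif2ak genes) and the Y-linked Eif2s3y were left out, 5 genes in all, so 53 genes of the 18194 with a level remained. No measured value entered that choice, except that the probe set with the highest mean stood for a gene where several did. The 53 genes had 140 probe sets, 37 genes had more than 1, and all 53 passed the filter on low values that 16865 genes passed. A further 12 listed factors, among them Eif2s1, Eif4g1 and Eif4ebp3, had no probe set of their own and are not analysed here.

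Translation begins when eIF2 brings the initiator tRNA to the small ribosomal subunit, eIF3 holds that complex together, and the cap-binding factor eIF4E, the scaffold eIF4G and the helicase eIF4A recruit it to a capped mRNA. The complex then scans to a start codon, where eIF1, eIF1A, eIF5 and eIF5B govern the choice of codon and the joining of the large subunit. Supply of eIF2 is limited by its exchange factor eIF2B, and supply of eIF4E by the 4E-binding proteins, which mTOR inactivates by phosphorylation. In elongation eEF1A delivers the aminoacyl-tRNAs, the eEF1B subunits recharge it, and eEF2 moves the ribosome along. In the obstructed kidney, pericytes and fibroblasts enlarge, divide and secrete matrix.

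All mice carried the Col1a1-eGFPL10a transgene on a C57/129sv background, in which the collagen 1α1 promoter and enhancer drive a GFP-tagged ribosomal protein L10a, so tagged ribosomes are made wherever that element is active. Pulling down the tag (TRAP, translating ribosome affinity purification) gave the bound RNA, labelled as kidney pericytes, that is periarterial fibroblasts of the medulla; the unbound RNA was labelled kidney medulla. Bound RNA was taken at day 0 after sham surgery and at day 2 and day 5 after unilateral ureteral obstruction (UUO), and unbound RNA at day 0 after sham and day 5 after UUO, with 3 arrays in each of the 5 groups and no unbound group at day 2. The labels give both sexes and a stage of P14 to P300 for every group and are silent on whether each array stands for its own animal; p-values therefore measure only the spread between these arrays. In such bulk RNA, fewer cells of a type and less RNA per cell cannot be told apart.

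The arrays were numbered 1 to 15 in the titles: 1 to 3 bound at day 0, 4 to 6 unbound at day 0, 7 to 9 bound at day 2, 10 to 12 bound at day 5 and 13 to 15 unbound at day 5. Arrays 6, 9, 12 and 15 were brighter: their hybridization controls averaged 12114 to 12905 intensity units, and those of the remaining arrays 4727 to 5864. Array 11 had a Gapdh 5′ to 3′ ratio of 0.0269 against 0.178 to 0.583 elsewhere. Levels are log2 of the deposited intensity plus 1 after quantile normalization, and only levels of the same gene are compared. The summed log2 level of 8 fibroblast and pericyte markers, Col1a1 and Pdgfrb among them, was 15.01 to 15.06 in bound and 12.86 to 13.29 in unbound RNA at day 0. The summed level of 7 tubule markers overlapped between these groups (14.51 to 15.29 bound, 14.96 to 15.26 unbound), and all 4 podocyte markers read were higher in bound RNA.

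Most of the factors were bright and, after quantile normalization, moved little. Their median mean level was 11.52, against 8.45 for all tested genes, and 52 of 53 were above the negative-control floor on every array; Eif4a3, the helicase of the exon junction complex, was above it on 5 of the 15 arrays and in the mean of none of the 5 groups. The median range over the 15 arrays was 1.29 for the factors and 2.46 for all tested genes, on the log2 scale. Eef1a1, which encodes the main eEF1A, spanned only 0.31, Eif4h 0.33, Eif4g2 0.35 and Eef1d 0.40. Eif4ebp1 spanned 3.06, the widest range of any factor apart from the dim Eif4a3 at 3.80. Whether the small ranges go with the high levels was not tested.

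**Figure D1:**
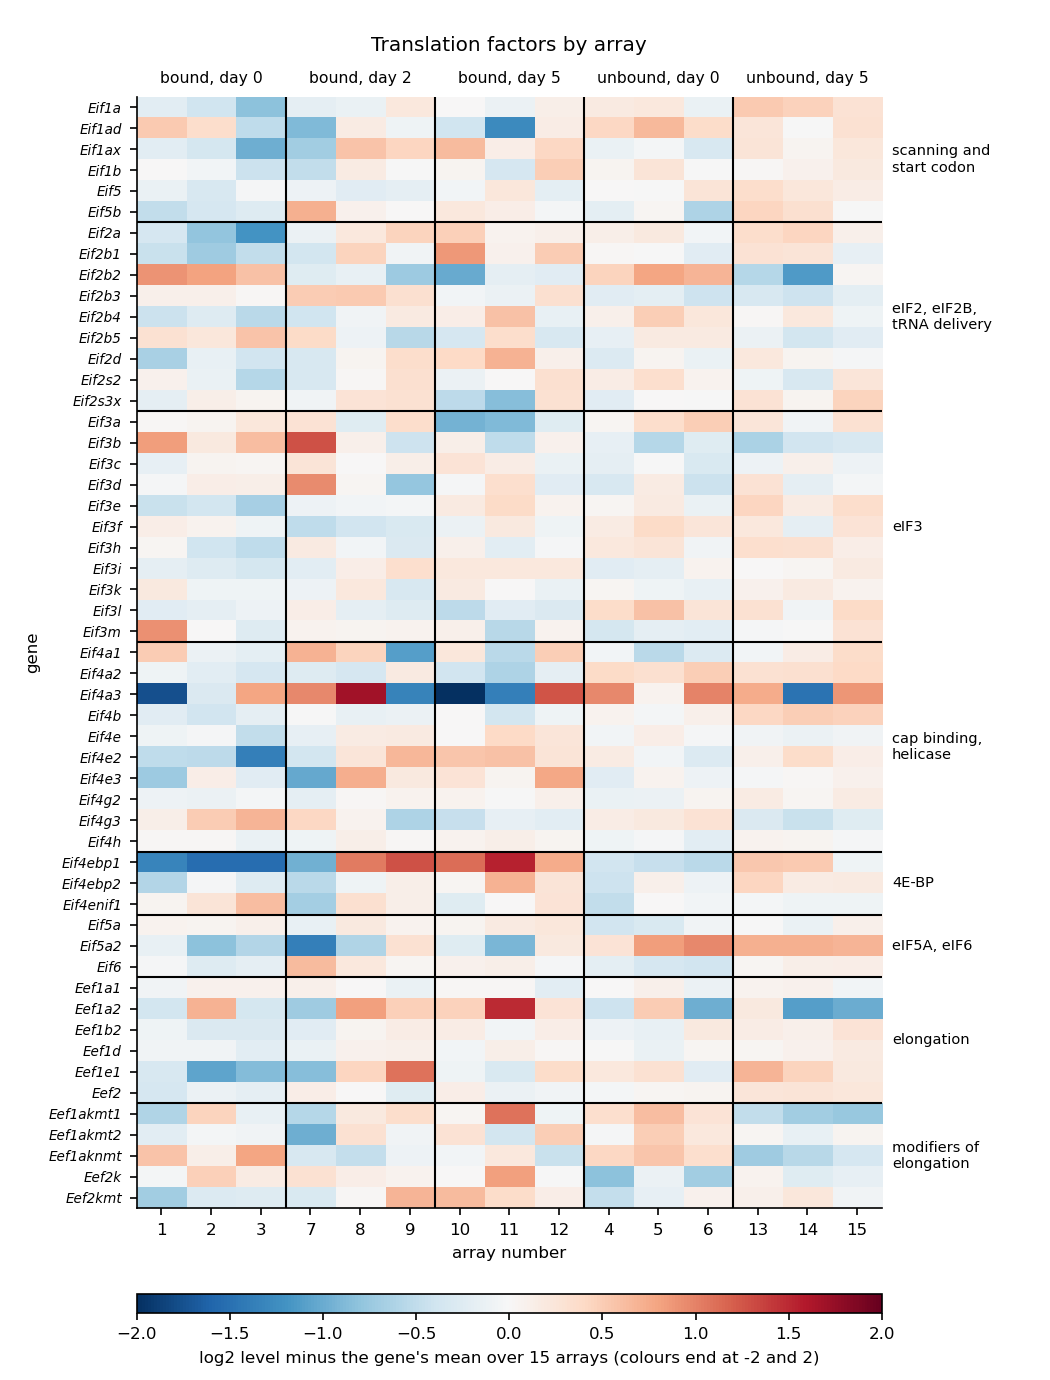
The log2 level of each of the 53 factors (rows, by role) on each of the 15 arrays (columns, by group) minus the gene's mean over all arrays; red is above and blue below that mean, and the colours end at -2 and 2. Most rows are pale, Eif4ebp1 turns from blue on arrays 1 to 3 to red on arrays 10 to 12, Eif2b2 turns the other way, and Eif4a3, which lies near the floor, varies most within groups.

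Over the 7 comparisons the factors gave 17 calls among 371 tests at an adjusted p under 0.05, and 11 of the 53 genes passed at least once. Between bound RNA of day 5 and day 0, 6 factors rose and 2 fell (15.1% of 53), where 23.7% of all tested genes passed. Between bound RNA of day 2 and day 0, 2 rose and 1 fell (5.66%, against 9.25% of all genes). Bound and unbound RNA differed for 1 factor at day 0 (1.89%, against 8.91%) and for 3 at day 5 (5.66%, against 14.1%), all 4 of them lower in bound RNA. With arrays centred on their medians in place of quantile normalization, the 6 rises and 2 falls of day 5 against day 0 became 6 rises and no fall, and the 3 factors lower in bound RNA at day 5 became 2 that were higher, Eif5a and Eef1akmt1. In unbound RNA 2 factors fell from day 0 to day 5 (3.77%, against 10.4%). After quantile normalization, the share of factors that passed was below that of all genes in every one of these comparisons. The share of all genes that passed with centring is not given here.

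The median size of the factors' difference, without its sign, was 0.35 between bound RNA of day 5 and day 0, against 0.65 over all tested genes. It was 0.23 against 0.48 between day 2 and day 0, 0.31 against 0.51 between bound and unbound RNA at day 0, and 0.21 against 0.57 at day 5. In the last of these 42 of the 53 factors, or 79.2%, differed by under 0.5, where 45.1% of all genes did. These sizes rest on the scaling. With arrays centred on their medians the median size between bound RNA of day 5 and day 0 was 0.68 for the factors and 0.73 for all genes, and between bound and unbound RNA at day 5 it was 0.69 and 0.74, with 15 of the 53 factors under 0.5. Between bound RNA of day 2 and day 0, and between bound and unbound RNA at day 0, the centred sizes were 0.31 against 0.50 and 0.33 against 0.55.

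**Figure D2:**
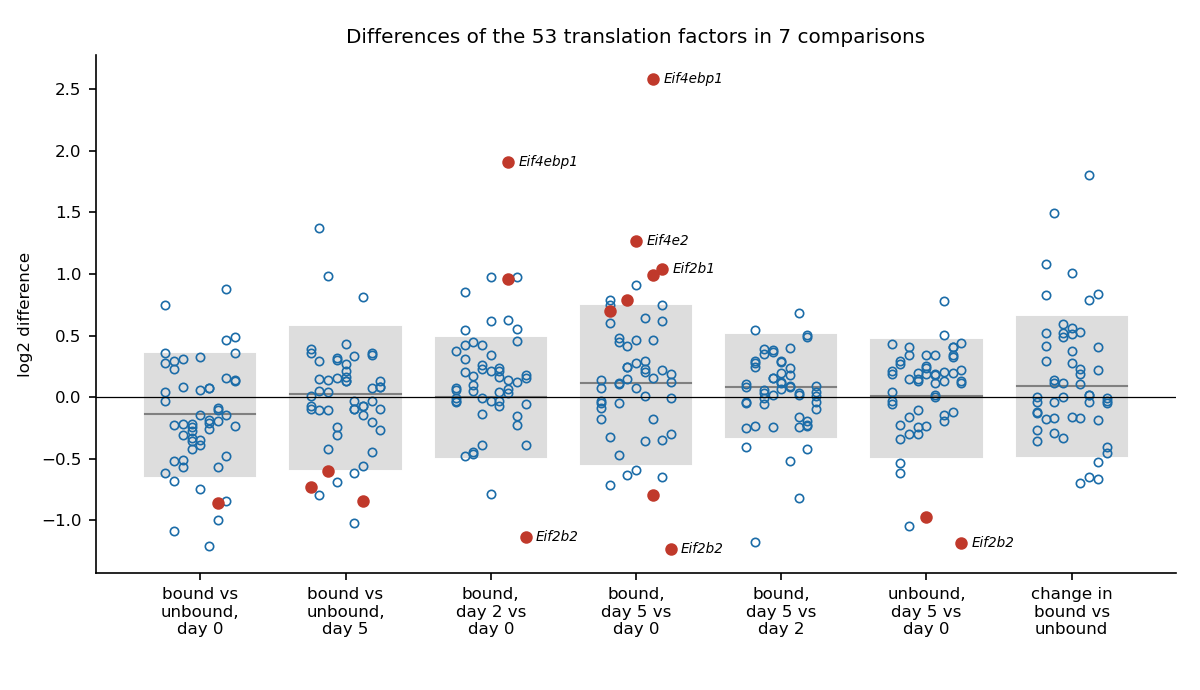
Log2 differences (vertical axis) of the 53 factors in the 7 comparisons (horizontal axis); each circle is 1 gene, filled red where the adjusted p was under 0.05, and the grey box runs from the lower to the upper quartile of all 16865 tested genes with their median as a line. Most circles lie inside the boxes, Eif4ebp1 stands highest at day 2 and day 5 in bound RNA (1.91 and 2.59), and Eif2b2 is the lowest called factor in bound RNA at both times (-1.14 and -1.24) and in unbound RNA at day 5 (-1.19).

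The stretches just upstream of the annotated starts of several factors are shown because the called factors moved in opposite directions, so their start regions can be set side by side. The called Eif4ebp1 and Eif3e are not printed, and Eef2 and Eif5a2 are printed though they passed in no comparison. They come from RefSeq on GRCm38.p6, which held an entry for 42 of the 53 factors, and each is given 5′ to 3′ on the gene's strand, ending at the last base before the start. Capitals mark an ETS core (CCGGAAG), an E-box (CACGTG) or a TATA box (TATAAA).
Eif4e2 (chr1:87213839-87213938, + strand): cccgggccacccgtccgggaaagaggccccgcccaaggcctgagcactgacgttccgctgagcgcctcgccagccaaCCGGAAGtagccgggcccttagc
Eif2b1 (chr5:124579132-124579231, - strand): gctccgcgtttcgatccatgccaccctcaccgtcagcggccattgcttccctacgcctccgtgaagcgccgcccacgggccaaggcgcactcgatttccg
Eif2a (chr3:58525721-58525820, + strand): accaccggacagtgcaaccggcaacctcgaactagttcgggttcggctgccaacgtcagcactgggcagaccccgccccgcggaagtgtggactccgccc
Eif2d (chr1:131153107-131153206, + strand): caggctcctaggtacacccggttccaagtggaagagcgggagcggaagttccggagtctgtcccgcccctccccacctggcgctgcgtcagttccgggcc
Eif2b2 (chr12:85219381-85219480, + strand): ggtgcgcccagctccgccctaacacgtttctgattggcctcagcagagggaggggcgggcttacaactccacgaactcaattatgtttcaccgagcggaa
Eif3a (chr19:60790694-60790793, - strand): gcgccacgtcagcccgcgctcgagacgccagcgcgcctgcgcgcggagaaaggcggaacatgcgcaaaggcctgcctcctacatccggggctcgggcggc
Eef2 (chr10:81176531-81176630, + strand): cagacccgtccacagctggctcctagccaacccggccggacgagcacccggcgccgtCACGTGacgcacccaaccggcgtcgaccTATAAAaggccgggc
Eif5a2 (chr3:28781107-28781276, + strand): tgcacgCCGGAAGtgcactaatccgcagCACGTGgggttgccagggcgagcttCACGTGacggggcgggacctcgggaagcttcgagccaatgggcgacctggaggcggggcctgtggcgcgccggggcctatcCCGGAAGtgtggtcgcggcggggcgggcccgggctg

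These and 2 other short motifs were searched on both strands from 250 bases before to 50 bases after every start listed for a gene. The ETS core was found in 15 of the 42 factors (35.7%), against 15.9% of the 13337 tested genes with an entry, and the E-box in 12 (28.6%), against 10.6%. Eif1b, Eif5a and Eif5a2 held both, and the Eif5a2 stretch above holds each of them at 2 places. The TATA box was found in Eef2, Eif3b and Eif3f (7.14%, against 10.8%), the AP-1 site TGACTCA in Eif3l alone (2.38%, against 5.18%) and the amino acid response element TTGCATCA in none (0 of 42, against 0.795%). Of the called factors printed above, Eif4e2 held an ETS core upstream of the third of the starts listed for it, and Eif2b2 and Eif3a held an ETS core and an E-box, respectively, after the start and so outside the stretch shown. The factors averaged 1.33 listed starts and the tested genes 1.26, and these matches are letters in a window, with no measurement of binding. No matches overlapped in the factors.

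Day 5 of obstruction was compared with sham in bound RNA, the comparison with the most called factors. Eif4ebp1, which encodes the mTOR-controlled inhibitor of eIF4E called 4E-BP1, rose the most. Of the genes of tRNA delivery and its control, 4 moved: Eif2a, Eif2b1 and Eif2d rose and Eif2b2 fell. The cap-binding homologue Eif4e2 and the eIF3 subunit gene Eif3e rose, and the eIF3 subunit gene Eif3a fell. The elongation factors, the scanning factors and eIF5A and eIF6 gave no call. The fibroblast and pericyte markers also moved in this comparison (5 of 8 rose), as did the proliferation markers (4 of 4 rose, their summed level going from 8.40 to 8.69 at day 0 to 12.72 to 13.20 at day 5) and the tubule markers (7 of 7 fell, from 14.51 to 15.29 down to 13.24 to 13.79). No proliferation marker was at the floor at day 5 and 1 was at day 0; no tubule or podocyte marker read was at it in either group. The podocyte markers fell (4 of 4), 2 of 5 endothelial markers fell and none of 5 macrophage markers passed; the part of these cell mixtures in the factors' changes was not tested.

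The level of Eif4ebp1 in bound RNA was 8.79, 8.60 and 8.60 at day 0, 9.16, 11.15 and 11.39 at day 2, and 11.23, 11.65 and 10.86 at day 5. Array 7 of day 2 lay close to the sham arrays, and no obstructed array reached down to them. The difference at day 5 was 2.59 ± 0.47 (log2, standard error, 3 arrays a group), a 6.00-fold rise with an adjusted p of 0.00245. At day 2 it was 1.91 ± 0.47, or 3.75-fold, with an adjusted p of 0.0239. The day 5 call was kept when any of the 15 arrays was left out (2.35 to 2.78) and under all 9 other processing settings. The day 2 call was lost without array 2, 3, 8 or 9, at adjusted p-values of 0.0683 to 0.0845. It was lost as well with median centring (0.0551), averaged probe sets (0.102), a fit on the compared groups alone (0.230) and without the bright arrays (0.162). The other 2 probe sets of Eif4ebp1 above the floor moved the same way at day 5, by 0.96 and 1.99, and at day 2, by 0.31 and 1.55.

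Of the other 4E-binding proteins, Eif4ebp2 had 10.59, 11.16 and 10.93 in bound sham RNA and 11.22, 11.88 and 11.44 at day 5, which did not overlap. Its difference of 0.62 ± 0.26 did not pass (adjusted p 0.0971), and its 95% interval runs from 0.07 to 1.18. Its 4 other probe sets differed the other way, by -1.83, -1.34, -0.66 and -0.46, so the direction of Eif4ebp2 depends on the probe set read. Eif4enif1, which encodes the eIF4E transporter 4E-T, differed by -0.30 and did not pass.

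Eif4e2 encodes 4EHP, a relative of eIF4E that binds the cap but not the scaffold eIF4G. Its bound levels were 11.71, 11.70 and 10.85 at day 0, 11.86, 12.46 and 12.88 at day 2, and 12.78, 12.81 and 12.47 at day 5. Array 3 was the lowest of all 15, and the day 5 arrays lay above the 3 sham arrays. The rise at day 5 was 1.27 ± 0.30, or 2.41-fold, with an adjusted p of 0.00995, and it was kept whichever array was left out. It missed the threshold when the probe sets of a gene were averaged (adjusted p 0.131), and its 3 other probe sets above the floor rose by 0.38 to 1.18. At day 2 the difference of 0.98 did not pass (adjusted p 0.0583). Eif4e, the main cap-binding factor, differed by 0.42 at day 5 without passing (adjusted p 0.143), and the interval reaches 1.79-fold. With arrays centred on their medians the difference of Eif4e was 0.86, and its 2 other probe sets above the floor on every array differed by 0.65 and -0.39. Eif4g3, which encodes a paralogue of the eIF4G scaffold, differed by -0.71 and did not pass (adjusted p 0.0615).

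Among the 9 genes of initiator-tRNA delivery, Eif2a encodes eIF2A, a tRNA-binding factor distinct from the α subunit of eIF2. Its bound levels were 10.01, 9.56 and 9.15 at day 0, 10.23, 10.56 and 10.79 at day 2, and 10.82, 10.42 and 10.45 at day 5. All 6 obstructed arrays lay above the 3 sham arrays, and the sham arrays were the most spread. The rise was 0.96 ± 0.25 at day 2 (1.94-fold, adjusted p 0.0303) and 0.99 ± 0.25 at day 5 (1.99-fold, adjusted p 0.0136). The day 5 call was lost without array 3 or 10 (adjusted p 0.0561 and 0.0568), and the day 2 call without array 2, 3, 8 or 9 (0.0640 to 0.112). The day 5 call was also lost with averaged probe sets (0.251), a fit on the compared groups (0.0788) and without the bright arrays (0.0541), and the day 2 call with those settings (0.117, 0.288 and 0.197) and with median centring (0.122). Its other probe set above the floor differed by 0.87 and 1.40 at day 2 and day 5.

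The eIF2B complex, which returns eIF2 to its active form, moved in opposite directions in its subunit genes. Eif2b1, for the regulatory α subunit, had 8.76, 8.50 and 8.72 in bound sham RNA and 10.07, 9.30 and 9.72 at day 5, with no overlap. It rose by 1.04 ± 0.26, or 2.05-fold (adjusted p 0.0141), and the call was lost without array 10 (adjusted p 0.0606), in a fit on the compared groups (0.0573) and without the bright arrays (0.0733). Eif2b2, for the β subunit, had 10.85, 10.75 and 10.54 at day 0, 9.70, 9.79 and 9.22 at day 2, and 8.94, 9.77 and 9.72 at day 5. Every obstructed bound array lay below every sham array. It fell by 1.14 ± 0.31 at day 2 (2.20-fold, adjusted p 0.0405) and by 1.24 ± 0.31 at day 5 (2.35-fold, adjusted p 0.0148). Without array 10 the day 5 fall had an adjusted p of 0.0634, and the day 2 call was lost without any 1 of arrays 1 to 6, 8, 9 and 13 (0.0528 to 0.122). Median centring ended both calls (0.0669 at day 5, 0.0991 at day 2), and the day 2 call was lost under 4 further settings (0.0941 to 0.161). Its 2 other probe sets above the floor fell as well at day 5, by 0.94 and 1.23. The 3 remaining subunit genes did not pass: Eif2b4, for the δ subunit, differed by 0.60 (adjusted p 0.0809) and Eif2b5, for the catalytic ε subunit, by -0.47 (adjusted p 0.229).

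Eif2d, for a factor that can deliver tRNA without eIF2 and splits spent ribosomes, had 10.70, 11.21 and 10.97 at day 0 and 11.75, 12.05 and 11.45 at day 5 in bound RNA. It rose by 0.79 ± 0.24, or 1.73-fold (adjusted p 0.0302), and its 3 other probe sets above the floor rose by 0.97 to 1.98. The call was lost without array 1, 3, 10 or 11, at adjusted p-values of 0.0731 to 0.0950, and in a fit on the compared groups (0.104). Eif2s3x, the X-linked gene of the eIF2 γ subunit, differed by -0.35 and did not pass (adjusted p 0.372).

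The 11 genes of eIF3, the large scaffold of the small-subunit complex, gave 1 rise and 1 fall at day 5, with a median difference of -0.05. Eif3e had 11.99, 12.08 and 11.78 at day 0 and 12.62, 12.82 and 12.52 at day 5 in bound RNA, and the groups did not overlap. It rose by 0.70 ± 0.18, or 1.63-fold (adjusted p 0.0150), its other 2 probe sets above the floor rose by 0.63 and 0.74, and the call was lost without array 3 (adjusted p 0.0586), with averaged probe sets (0.135), in a fit on the compared groups (0.0890) and without the bright arrays (0.0539). Eif3a, for the largest subunit, had 12.01, 12.04 and 12.21 at day 0 and 11.04, 11.10 and 11.74 at day 5, with the day 2 arrays at 12.27, 11.74 and 12.34. Its fall of 0.79 ± 0.25, or 1.73-fold, passed (adjusted p 0.0356) and was lost without array 1, 2, 3, 10, 11 or 13 (0.0509 to 0.123). It was lost too with median centring, where the difference was -0.44 (0.313), with averaged probe sets (0.218) and in a fit on the compared groups (0.105). Its 3 other probe sets above the floor fell by 0.03 to 0.73.

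**Figure D3:**
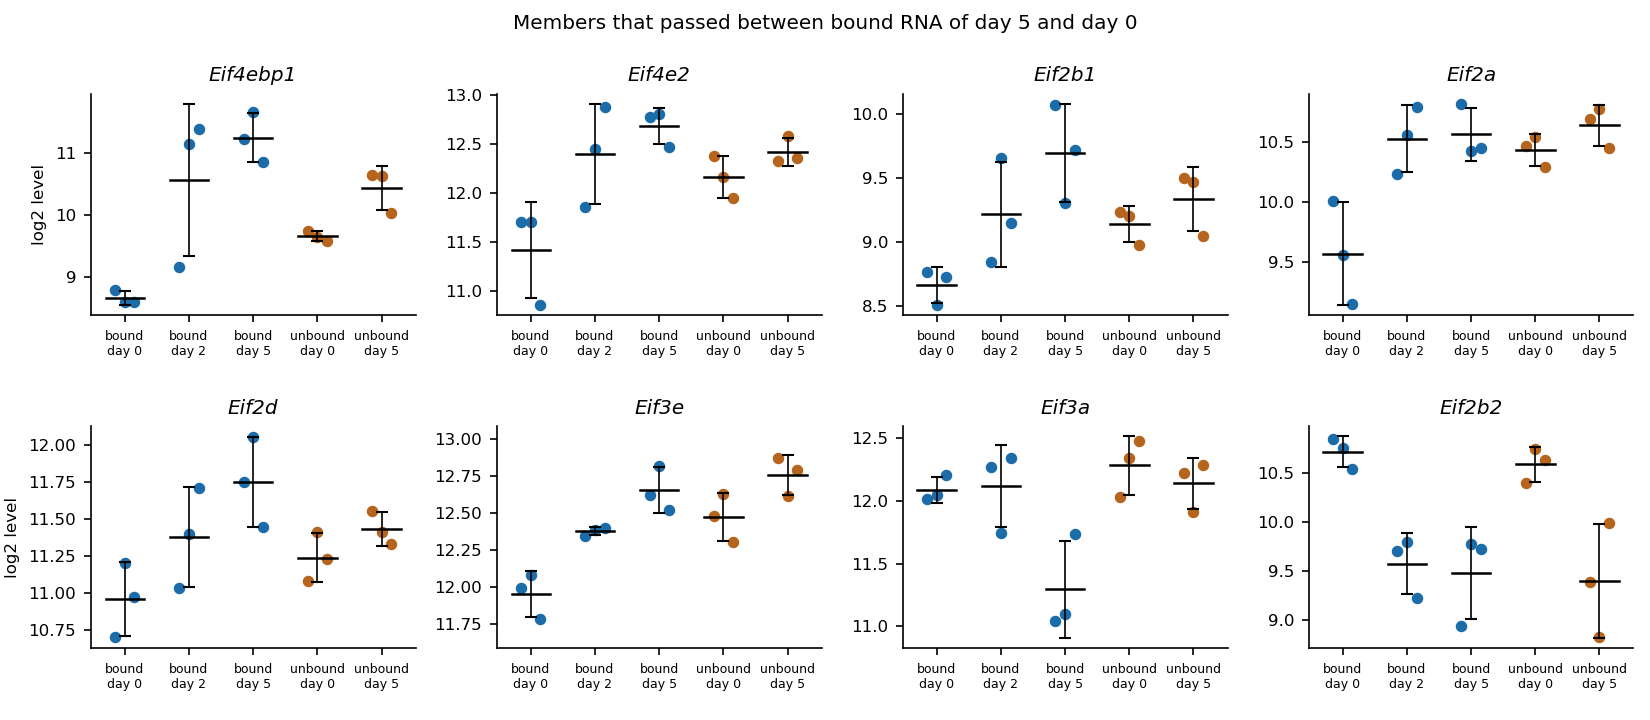
Log2 level (vertical axis) of the 8 factors that passed between bound RNA of day 5 and day 0, in each of the 5 groups; points are arrays (blue bound, brown unbound), lines the means of 3 arrays and bars 1 standard deviation. In bound RNA Eif4ebp1, Eif4e2, Eif2b1, Eif2a, Eif2d and Eif3e lie higher at day 5 than at day 0 and Eif3a and Eif2b2 lower, with no overlap in any of the 8 panels. The 8 were chosen by passing on these same arrays, so the lack of overlap is not separate support.

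The count of 8 called factors at day 5 depended on the arrays: it was 4 without array 3 and 3 without array 10. Array 11, with its low Gapdh ratio, decided the calls of Eif2d and Eif3a alone among the 8. At day 2 the count of 3 became 6 without array 7, 1 without array 2 and 0 without array 3, 8 or 9. The 1 factor called without array 2 was Eef1aknmt, which was not among the 3. The comparisons of day 2 and of day 5 share the 3 bound sham arrays, which also enter the bound and unbound comparison of day 0, so their differences are not independent. Between bound RNA of day 5 and day 2, limma called 0 of 53 factors (0.587% of all genes passed). Without the adjustment 2 factors had p under 0.05 (3.77%), where 16.2% of all genes had. The smallest adjusted p there was 0.150 for Eif3a, at -0.82 ± 0.25, and Eif3a passed without array 8.

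None of the 6 genes listed as elongation factors passed in any of the 7 comparisons of the main fit. Eef1e1, listed by its name, had 8.91, 8.18 and 8.36 at day 0 and 9.16, 8.93 and 9.61 at day 5 in bound RNA, without overlap. Its differences were 0.97 at day 2 and 0.75 at day 5. It passed without array 7 at day 2, and with array weights at day 5 and in bound against unbound RNA at day 0. Eef1a1 had 13.50, 13.65 and 13.66 at day 0, 13.67, 13.58 and 13.44 at day 2, and 13.59, 13.59 and 13.36 at day 5 in bound RNA. Its groups overlapped in these and in unbound RNA, and the difference at day 5 was -0.09 ± 0.17 (adjusted p 0.739). The 95% interval allows a change of at most 1.37-fold in either direction. These values rest on quantile normalization: with arrays centred on their medians the difference of Eef1a1 was 0.54, that of Eef2 0.74 and that of Eef1b2 0.87, where the median of all genes was 0.34. After quantile normalization Eef2, for the translocase, differed by 0.19 ± 0.17 (adjusted p 0.454, at most 1.48-fold), and Eef1b2, for a subunit of the exchange factor, by 0.30 ± 0.18 (adjusted p 0.262, at most 1.62-fold). Eef1a2, the eEF1A gene known from muscle and nerve, was dim and variable, with 5.62, 6.68 and 5.64 at day 0 and 6.45, 7.47 and 6.26 at day 5 in bound RNA. Its difference of 0.75 ± 0.54 did not pass (adjusted p 0.343), and the interval reaches 3.79-fold.

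Other factors central to initiation also did not pass at day 5 in bound RNA, and their intervals differ in width. Eif4a1, for the main cap-complex helicase, differed by -0.01 ± 0.43, with an interval reaching 1.92-fold, and its 2 other probe sets by 0.39 and 0.30. Eif5a, whose product eases peptide bonds at proline stretches and carries the modified lysine hypusine, differed by 0.08 ± 0.17, with an interval reaching 1.37-fold. With arrays centred on their medians the difference of Eif5a was 0.65, and its other probe set differed by 0.86 after quantile normalization, both outside that interval. Eif6, whose product keeps large subunits from joining too early, differed by 0.22 ± 0.19, with an interval reaching 1.55-fold, and by 0.63 with median centring. The highest difference among the 6 scanning and start-codon factors was 0.91 for Eif1ax (adjusted p 0.0569), whose 2 other probe sets differed by 0.05 and -1.02.

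**Figure D4:**
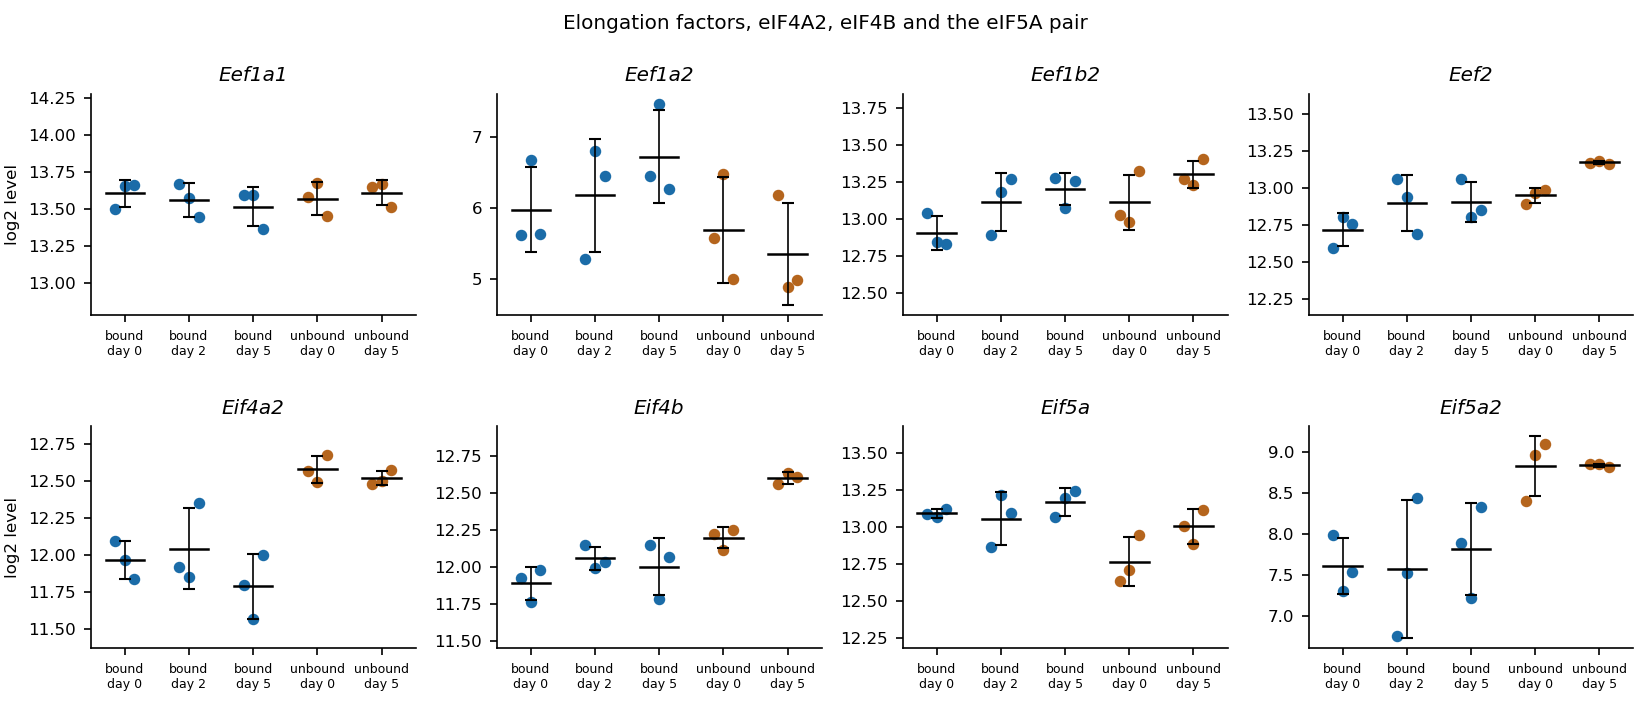
Log2 level (vertical axis) of elongation factors (top row) and of Eif4a2, Eif4b, Eif5a and Eif5a2 (bottom row) in each of the 5 groups; points are arrays (blue bound, brown unbound), lines the means of 3 arrays and bars 1 standard deviation. Eef1a1 stays between 13.36 and 13.67 on all 15 arrays, and Eif4a2 and Eif4b lie lower in bound than in unbound RNA at day 5.

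Bound and unbound RNA were compared next, to see which factors' messages were richer or poorer on the tagged ribosomes than in the rest of the medulla. At day 0 Eif2a alone passed. Its unbound levels of 10.46, 10.54 and 10.29 lay above all 3 bound levels, and it was lower in bound RNA by 0.86 ± 0.25, or 1.82-fold (adjusted p 0.0484). The Eif2a call was lost without any 1 of arrays 2 to 6 and 10 to 15 (adjusted p 0.0512 to 0.142). It was lost too under 6 of the 9 other settings (0.0558 to 0.657). The count became 0 in all of these but the fit on the compared groups, which called Eif4ebp1 instead. The count was 4 without array 7 and 3 without array 9. Without the multiple-testing adjustment 10 of 53 factors had p under 0.05 (18.9%), where 25.1% of all genes had. Fibroblast markers were higher in the same bound RNA for 7 of 8 genes, podocyte markers for 4 of 4 and tubule markers for 0 of 7; the part of these cell types in the difference was not tested.

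At day 5 the genes of the helicase Eif4a2, of its cofactor Eif4b and of the eIF3 subunit Eif3a were lower in bound than in unbound RNA. Eif4a2 had 11.80, 11.57 and 12.01 in bound and 12.48, 12.50 and 12.58 in unbound RNA, a difference of -0.73 ± 0.20 (1.66-fold, adjusted p 0.0289). Eif4b had 12.15, 11.79 and 12.07 in bound and 12.56, 12.64 and 12.61 in unbound RNA, a difference of -0.60 ± 0.17 (1.52-fold, adjusted p 0.0356). Of the 2 other Eif4b probe sets, 1 differed by -0.68 and 1 by 0.02. Neither pair of groups overlapped, but with arrays centred on their medians in place of quantile normalization, the differences of Eif4a2 and Eif4b became 0.05 and 0.20, and the median of all genes moved from 0.03 to 0.41. Relative to that median they were -0.76 and -0.63 after quantile normalization and -0.37 and -0.21 after centring. Eif3a had 12.22, 11.91 and 12.28 in unbound RNA, above its bound levels, with a difference of -0.84 ± 0.25 (1.79-fold, adjusted p 0.0409). With centring the Eif3a difference was -0.16 (adjusted p 0.727), so none of the 3 calls was kept under that scaling. The 3 other Eif3a probe sets differed by -0.92 to -0.21.

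The Eif4a2 call was lost without array 10, 11, 13, 14 or 15 (0.0741 to 0.0899), that of Eif4b without any 1 of arrays 4 to 6 and 10 to 15 (0.0519 to 0.115), and that of Eif3a without array 2, 5, 6, 10, 11, 13, 14 or 15 (0.0535 to 0.131). Without the bright arrays all 3 were lost (0.115, 0.194 and 0.113), and those of Eif4b and Eif3a also with averaged probe sets (0.205 and 0.215) and in a fit on the compared groups (0.0650 and 0.0704). The count of 3 became 0 without array 10, 11, 13, 14 or 15, 1 without array 5 or 6, and 5 without array 7. Eif4a2 was also below its unbound level at day 0, by 0.61 ± 0.20, without passing (adjusted p 0.0711). At day 5 fibroblast markers were higher in bound RNA for 4 of 8 genes, while 2 of 7 tubule and 3 of 5 endothelial markers were lower; 2 of 4 podocyte markers (Nphs1 by 3.94, Wt1 by 3.16) and 2 of 4 proliferation markers (Cdk1 by 0.93, Top2a by 1.04) were higher; their part in these differences was not tested.

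The paralogue pair Eif5a and Eif5a2 gave no call between bound and unbound RNA at either time after quantile normalization. Eif5a2 had 7.98, 7.31 and 7.54 in bound and 8.41, 8.96 and 9.10 in unbound RNA at day 0, and 7.90, 7.22 and 8.33 against 8.85, 8.85 and 8.81 at day 5. The groups did not overlap at either time, and the differences were -1.21 ± 0.40 (adjusted p 0.0803) and -1.02 ± 0.40 (adjusted p 0.106). The other Eif5a2 probe set differed by -1.30 and -0.36. Eif5a differed by 0.33 ± 0.17 at day 0 and 0.17 ± 0.17 at day 5 (adjusted p 0.267 and 0.561), and with arrays centred on their medians by 1.16 at day 5, which passed. Eef1a2 differed by 1.37 ± 0.54 at day 5 (adjusted p 0.110).

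In unbound RNA, 2 factors fell from day 0 to day 5. Eif2b2 had 10.39, 10.74 and 10.63 at day 0 and 9.39, 8.82 and 9.98 at day 5 and fell by 1.19 ± 0.31, or 2.28-fold (adjusted p 0.0310). Its fall in unbound RNA stands beside falls of 1.14 and 1.24 in bound RNA at day 2 and day 5. Eef1aknmt, for the enzyme that methylates eEF1A at a lysine and at its N terminus, had 7.39, 7.52 and 7.31 at day 0 and 6.26, 6.42 and 6.63 at day 5 and fell by 0.97 ± 0.24, or 1.96-fold (adjusted p 0.0209). The other Eef1aknmt probe set above the floor differed by 0.21, and the average of its probe sets by 0.08. Both calls were lost without array 4, 5, 6, 13 or 14, where the count became 0, at adjusted p-values of 0.0659 to 0.132 for Eif2b2 and 0.0517 to 0.0985 for Eef1aknmt. Both were lost without the bright arrays (0.0610 and 0.0825), and that of Eif2b2 with averaged probe sets (0.0892). In the same comparison 7 of 8 fibroblast markers, 4 of 4 proliferation markers, 2 of 5 macrophage markers and 1 of 4 podocyte markers rose, and 1 of 7 tubule markers fell; their part in these falls was not tested. Eif4ebp1 had 9.74, 9.65 and 9.58 in unbound RNA at day 0 and 10.65, 10.63 and 10.03 at day 5, which did not overlap, and its difference of 0.78 ± 0.47 did not pass (adjusted p 0.344); the other Eif4ebp1 probe sets differed by 0.37 and -0.92.

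Whether the change over time differed between bound and unbound RNA was tested as the change in the bound and unbound difference from day 0 to day 5. limma called 0 of 53 factors, where 0.0178% of all genes passed. Without the adjustment 6 factors had p under 0.05 (11.3%), where 14.2% of all genes had. For Eif4ebp1 the value was 1.81 ± 0.66, with an interval from 0.37 to 3.24 and an adjusted p of 0.268, so a larger rise in bound RNA was not called; without array 7 it was the 1 factor that passed. The smallest adjusted p was 0.240, for Eef1akmt1, at 1.50 ± 0.51. For Eif2b2, whose levels fell in both kinds of RNA, no call was made either.

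Genes that act next to these factors were read as lists. Of 17 tested genes that bind poly(A) tails or control the cap complex, 3 rose and 1 fell in bound RNA from day 0 to day 5, with a median of -0.33. The poly(A)-binding proteins Pabpc4 and Pabpc1 rose by 0.88 ± 0.22 (adjusted p 0.0143) and 0.56 ± 0.19 (adjusted p 0.0451), Mcts1, a partner in reinitiation, rose by 1.12 ± 0.36 (adjusted p 0.0419), and Pdcd4, an inhibitor of eIF4A, fell by 0.59 ± 0.18 (adjusted p 0.0329). Mtor, the kinase that inactivates 4E-BP1, differed by -1.11 ± 0.41 without passing (adjusted p 0.0655). At day 2 Pabpc4 alone of the 17 passed, with a rise of 1.02 ± 0.22 (adjusted p 0.0127). In bound against unbound RNA, Pabpc4 was lower at day 0 (-1.24 ± 0.22, adjusted p 0.00612). At day 5, 4 of the 17 were lower, where 14.1% of all genes passed. These were Pabpc4 (-0.91, adjusted p 0.0201), Paip1 (-1.19, 0.0344), Larp4 (-0.93, 0.0496) and Mknk2 (-0.72, 0.0477), the last 2 close to the threshold.

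Of 14 genes of the integrated stress response, the programme set off by phosphorylated eIF2, 3 rose and 1 fell in bound RNA at day 5, with a median of 0.18. Asns, for asparagine synthetase, rose by 2.49 ± 0.57 (adjusted p 0.00912), the transcription factor gene Cebpb by 2.28 ± 0.57 (adjusted p 0.0140) and Atf5 by 0.83 ± 0.26 (adjusted p 0.0381). Ddit3, which encodes the stress factor CHOP, fell by 1.29 ± 0.33 (adjusted p 0.0147). At day 2 Asns and Cebpb rose by 2.83 and 2.23 and Ddit3 fell by 2.23. In unbound RNA Cebpb also rose, by 2.43, and Ddit3 fell by 1.65. None of the 4 eIF2 kinase genes passed in bound RNA over time, and Eif2ak3, for PERK, was lower in bound than in unbound RNA at day 5 (-1.47 ± 0.38, adjusted p 0.0264).

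Of the enzymes that make hypusine on eIF5A, Dohh rose in bound RNA at day 5 by 1.11 ± 0.34 (adjusted p 0.0346), and the other of 2 did not pass. Of 8 tested mitochondrial translation factors 1 fell at day 5 in bound RNA, Gfm2, by 1.47 ± 0.31 (adjusted p 0.00642), and none rose. None of 4 termination and recycling genes passed in any of the 7 comparisons. The lists were read with the same fit as the factors, and in bound RNA at day 5 against day 0 the 23.7% of all genes that passed is the share to read their counts against. Calls of list genes were not followed through the other processing settings.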

How the data were processed

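Polysomal RNA, amplified in 1 round with a NuGEN kit and biotin-labelled per the labels' protocols, was measured on 15 Affymetrix arrays. The deposited values are linear intensity per probe set, made by the authors; how probes were summarised and scaled is not given in the sources used here. Levels were log2(intensity + 1) after quantile normalization (limma 3.58.1 in R 4.3.3), since the arrays differed in brightness; the number of arrays limits the precision. Of 45101 probe sets, 34945 had 1 gene in the platform annotation, 932 several and 9160 none, and 64 were controls; symbols were updated through Entrez identifiers for 34741. Of the factors, 11 were read from probe sets shared by similar transcripts, the called Eif4ebp1, Eif2b2 and Eif3e among them. Genes above an array's 25th percentile on at least 3 arrays were tested. One limma fit (lmFit, eBayes) over 5 groups gave 7 comparisons, with Benjamini-Hochberg adjustment over 16865 genes, 10 residual and 2.324 prior degrees of freedom, and was tested on simulated data. The genes named were all those that passed, plus landmarks; other factors (such as Eif4g3, Eif2b4, Eif2b5, Eif1ax, Eif4enif1, Eef1e1 and Eef1akmt1) were named after their values were seen. Members, lists and motifs were chosen with earlier results of these data known. Alternatives were median centring, pseudocount 16, a floor at the negative controls, no filter, averaged probe sets, array weights and fits on the compared groups. Others took each array's mean log2 hybridization-control intensity (brightness) as a covariate, left out the bright arrays, or left out each array in turn. Promoters are RefSeq's. Figures used matplotlib 3.10.9.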

Additional observations from a re-analysis of the deposited data

How the results depend on the processing

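Over the 110 named results and their 2640 alternatives, 119 lost a call, 22 gained one and 3 changed sign where either fit made a call. A further 88 values called in neither fit moved by at least the standard error of the main fit. The other 2408 kept their call, or were called in neither fit and moved by less, whatever their sign. The 3 sign changes with a call included Eif4a2 (0.0452) and Eif4b (0.201) between bound and unbound RNA at day 5 with median centring. The other was that of Eef1aknmt in unbound RNA with averaged probe sets (0.0832). Uncalled values changed sign with median centring as well. Among them were Eef1a1 between bound RNA of day 5 and day 0 (-0.09 to 0.54) and Eef2 between bound and unbound RNA at day 5 (-0.26 to 0.69). Median centring moved the median of all genes between bound RNA of day 5 and day 0 from 0.12 to 0.34 and of the factors from 0.15 to 0.68; between bound and unbound RNA at day 5 it moved them from 0.03 to 0.41 and from 0.01 to 0.69, for the change in that difference from 0.09 to 0.53 and from 0.02 to 0.89, and in unbound RNA the factors' median went from 0.15 to -0.20. The share of all genes called is given here for the main fit only. Counts of called factors under other settings, here and above, are therefore not set against all genes. Array weights raised the count of called factors to 12 and 10 in bound against unbound RNA at day 0 and day 5, to 14 in bound RNA at day 5 against day 0, to 8 in unbound RNA and to 3 for the change in the bound and unbound difference. Fits on the compared groups alone gave 1 (bound against unbound, day 5), 0 (bound, day 2), 3 (bound, day 5), 5 (unbound) and 1 (change in the difference). Without the bright arrays the counts were 0, 0, 0, 5 and 0 for bound against unbound at day 0 and day 5, bound at day 2, bound at day 5 and unbound. Averaged probe sets gave 0 at day 0 between bound and unbound RNA, 0 at day 2, 4 at day 5 and 0 in unbound RNA, median centring 0 at day 0 and 0 at day 2, and no filter or brightness as a covariate 0 at day 0. Leaving out 1 array each gave 0 to 4 and 0 to 5 for bound against unbound at day 0 and day 5, 0 to 6 for bound at day 2, 3 to 12 for bound at day 5, 0 to 1 for day 5 against day 2, 0 to 3 for unbound and 0 to 1 for the change in the difference. No paired analysis was possible because the titles number the arrays 1 to 15 and pair none. With 3 arrays a group, small changes cannot be called.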
